A study of Mus musculus with 48 samples.

Results

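Genes of glucose uptake and glycolysis were followed in O4+ oligodendrocyte-lineage cells and CD11B+ microglia from the brains of mouse pups exposed to IL1B or PBS. The 10 genes were Slc2a1, Hk1, Hk2, Hk3, Pfkl, Pfkfb3, Pgk1, Eno1, Ldha and Slc16a3, and a probe belonged to them if it was no control and carried one of these symbols in the scanner files. They were read by 16 of the 55681 probes, out of 34797 distinct gene names on the arrays, and each of the 16 was well above background on all 48 arrays.

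The pups were male swiss mice according to the labels, whereas the methods name OF1, and no group carries a transgene. IL1B, an inflammatory cytokine, was injected into the peritoneum at 10 ng/g, 2 times a day from P1 to P4 and once at P5, and controls received PBS on the same schedule. Cells were collected at P5, 2 h after the last injection per the labels (the methods give a later time), or at P10. The description of the P10 samples repeats P5, while their title, source and stage give P10, which was used. In each of the 8 groups of cell type, age and treatment there were 6 samples with 1 single-color Agilent array each. O4+ cells, which are late progenitors and immature oligodendrocytes, and then CD11B+ cells were taken in sequence from the same brains with magnetic beads. The methods describe brains pooled for each sample. The labels do not say which O4+ and CD11B+ samples share animals, so p-values measure the spread between arrays.

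Glucose enters glial cells through facilitative transporters, is phosphorylated by hexokinases, and is committed to glycolysis at the phosphofructokinase step. The lower enzymes then yield pyruvate, which lactate dehydrogenase turns into lactate for export by monocarboxylate transporters. Oligodendrocytes are known to use glucose for energy and for the lipids of myelin and to pass lactate to axons, while microglia are known to shift toward glycolysis when activated by inflammatory signals.

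Sequences of some probes are shown first. The results on Hk3 rest on the probe shown, while those shown for Pfkfb3 and Ldha were read beside the probe with the highest signal. The positions are those of the file annotation in the mm9 build. Pfkfb3 was read at its 3′ end and by a second probe, on the minus strand at chr2:11404189-11405602, whose 60 bases align over a longer interval and so cross an intron. The Hk3 probe lies on the minus strand at chr13:55107900-55107959. Beside its 3′-most probe, Ldha has a pair of internal probes on the plus strand at chr7:54107294-54107353 and chr7:54103010-54103069.
Pfkfb3 second probe: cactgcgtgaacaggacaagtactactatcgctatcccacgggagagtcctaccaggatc
Hk3 probe: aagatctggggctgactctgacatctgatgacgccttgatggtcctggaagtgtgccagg
Ldha internal probe at 54107294: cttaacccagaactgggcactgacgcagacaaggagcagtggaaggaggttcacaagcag
Ldha internal probe at 54103010: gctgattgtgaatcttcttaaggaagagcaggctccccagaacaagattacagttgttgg

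The only Pgk1 probe is placed by the same annotation at chr3:57906830-57906894, away from the gene on chromosome X, so its signal may include a copy of the gene and is given as that probe's value. Hk1 was read by 3 probes, which did not always change alike, and Slc16a3 by 2 probes that overlap. Unless stated otherwise, a gene is described by its probe with the highest mean signal over all arrays.

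The promoters of several of these genes are shown because glycolytic genes are textbook targets of hypoxia-inducible factors, whose core motif is ACGTG. In RefSeq promoters of the GRCm38.p6 build (250 bases before to 50 after a start), ACGTG was searched on both strands, where it includes the E-box CACGTG. All 10 genes had a promoter, 15 in total. The motif lay in 9 of the 15, belonging to 8 of the 10 genes, against 19.6% of 32851 promoters in the table, of which 7.15% held CACGTG. Eno1 and Pfkl had no match in these windows, and a promoter of Ldha, at chr7:46845554-46845853, had 5. The 250 bases before the start of 3 genes are given with the motif in capitals, for Hk2 (chr6:82774455-82774704, minus strand), Slc2a1 (chr4:119108495-119108744, plus strand) and Pgk1 (chrX:106186850-106187099, plus strand). A match describes letters only, and binding was not measured in these arrays.
Hk2: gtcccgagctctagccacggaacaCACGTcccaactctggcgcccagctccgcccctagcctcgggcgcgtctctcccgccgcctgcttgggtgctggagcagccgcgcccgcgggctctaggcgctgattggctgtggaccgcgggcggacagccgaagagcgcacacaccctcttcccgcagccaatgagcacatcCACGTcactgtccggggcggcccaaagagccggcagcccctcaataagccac
Slc2a1: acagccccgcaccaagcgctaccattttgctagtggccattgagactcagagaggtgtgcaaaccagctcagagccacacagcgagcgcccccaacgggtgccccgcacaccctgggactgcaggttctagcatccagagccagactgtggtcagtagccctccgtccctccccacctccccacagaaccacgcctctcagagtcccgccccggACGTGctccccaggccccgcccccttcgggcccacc
Pgk1: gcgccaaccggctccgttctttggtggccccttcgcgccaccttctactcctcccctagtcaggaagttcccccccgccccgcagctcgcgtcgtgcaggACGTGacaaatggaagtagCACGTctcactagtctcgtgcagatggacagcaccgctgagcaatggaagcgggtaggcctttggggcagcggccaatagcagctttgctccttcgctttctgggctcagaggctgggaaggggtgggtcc

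Values are log2 of the background-subtracted signal after quantile normalization, and a level of one gene is never set against that of another. A gene was called where limma gave an adjusted p under 0.05 (Benjamini-Hochberg, over all probes) and the medians of the groups differed more than 1.5-fold. The share over all probes given beside a count includes probes near background, whereas all 10 genes were well above it. Each comparison was also fitted on only the probes well above background on every array of at least 1 group, where a larger share was called. In bulk samples such as these, fewer cells of a type and less RNA per cell cannot be told apart. The arrays passed the scanner's criteria alike, with 54.1% to 66.4% of spots well above background and a correlation of at least 0.962 between arrays of a group. All 11 oligodendrocyte markers were higher in O4+ than in CD11B+ PBS cells at both ages. Of 12 microglia markers, 10 were lower and 1 was higher in O4+ cells at both ages, although all 12 were well above background there. All 11 oligodendrocyte markers were in turn well above background on every CD11B+ array. The arrays lie on 9 slides, and slide 9 holds only replicate 6 of 3 P10 groups.

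In O4+ cells at P5, Pfkfb3, Hk2 and Hk3 rose with IL1B, 3 of the 10 genes, where 4.92% of all probes were called either way and 3.43% were called higher. In the fit on probes well above background, 7.3% were called either way. No gene of the 10 was called lower (1.49% of all probes). The median change over the 10 genes was -0.05, beside -0.04 over all probes.

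Pfkfb3 makes fructose 2,6-bisphosphate, the strongest activator of phosphofructokinase, and is an inducible gene in inflammation. Its lowest, median and highest values were 10.82, 11.17 and 11.22 in PBS and 12.42, 12.82 and 13.12 in IL1B arrays. Every IL1B array lay above every PBS array. The change was 1.72 (SE 0.11, adjusted p = 3.77e-06), or 3.14-fold between medians. The probe that crosses an intron moved by 1.65 (SE 0.16), from a median of 5.44 to 7.14.

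Hk2, the inducible hexokinase that binds mitochondria, had values of 9.26, 9.55 and 9.85 in PBS and 10.18, 10.33 and 10.59 in IL1B arrays. The groups did not overlap. It rose by 0.77 (SE 0.10, adjusted p = 0.000392), or 1.72-fold. Hk3, a hexokinase found mainly in myeloid cells, went from 8.60, 9.0 and 9.17 to 9.42, 9.75 and 10.06, again without overlap. Its rise was 0.80 (SE 0.12, adjusted p = 0.000939), or 1.68-fold.

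None of the remaining 7 genes was called in O4+ cells at P5. Slc2a1, the main glucose transporter of glia and of the blood-brain barrier, differed by -0.04 (95% interval -0.44 to 0.36). Hk1, the constitutive hexokinase, differed by 0.09 in its brightest probe (adjusted p = 0.136) and by -0.20 and -0.21 in the others (adjusted p = 0.0111 and 0.0227), all with less than a 1.5-fold difference. Values were lower with IL1B, by an adjusted p under 0.05 alone and with folds under 1.5, for Ldha, the lactate dehydrogenase subunit that favours lactate (-0.30, with -0.30 and -0.31 for its internal probes), the Pgk1 probe (-0.30) and Slc16a3, the lactate exporter MCT4 (-0.33). By that looser criterion 3 genes were higher (6.75% of all probes) and 3 lower (11.5%), and 18.3% of all probes passed it either way.

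Ldha values of 16.02, 16.11 and 16.20 in PBS and 15.71, 15.82 and 15.89 in IL1B arrays did not overlap. Those of Pgk1, the phosphoglycerate kinase, ran from 14.58 to 14.76 and from 14.33 to 14.45, also apart. Slc16a3, by contrast, overlapped, at 10.50, 10.75 and 10.84 against 10.11, 10.44 and 10.55. Enolase 1, encoded by Eno1, differed by -0.13 (adjusted p = 0.20). Pfkl, the liver-type phosphofructokinase, had 1 PBS array at 8.62 while the highest reached 10.75. With that array the difference was -0.07 (SE 0.33), and without it -0.42 with an adjusted p of 7.55e-05, still under 1.5-fold.

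**Figure D1:**
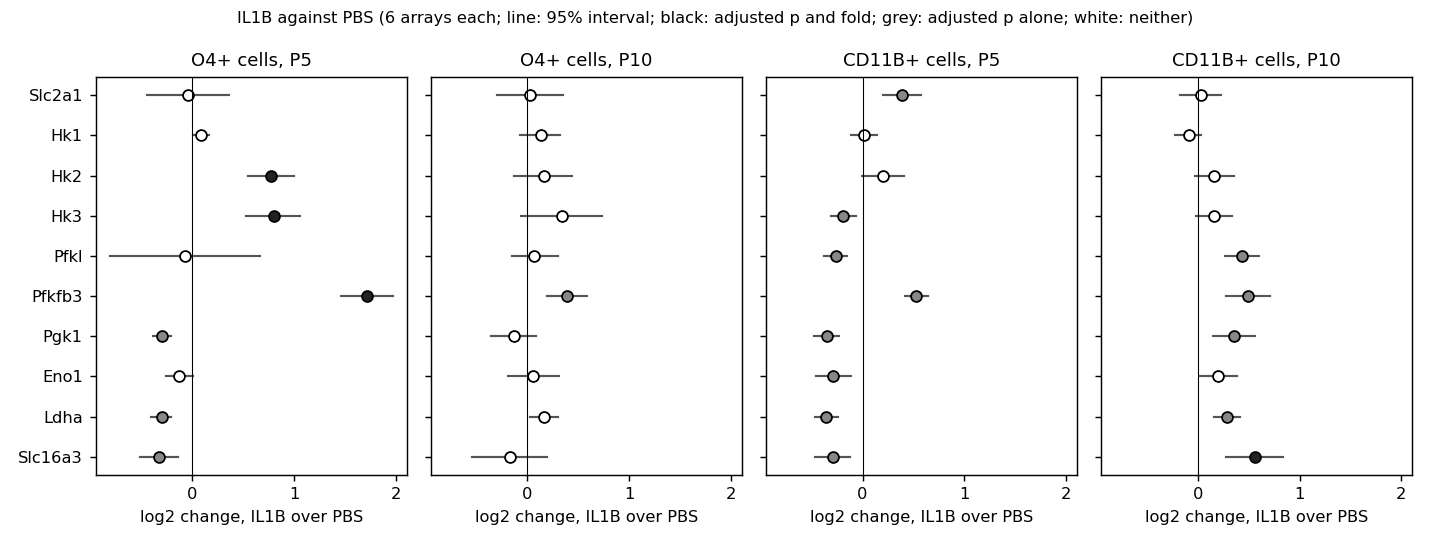
Log2 change of each of the 10 genes with IL1B (x axis, with the 95% interval as a line, 6 arrays against 6) in the 4 combinations of cell type and age. Black points passed the adjusted p and the 1.5-fold threshold, grey points the adjusted p alone and white points neither, and the black points are Pfkfb3 (1.72), Hk3 (0.80) and Hk2 (0.77) in O4+ cells at P5 and Slc16a3 (0.56) in CD11B+ cells at P10.

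On the slides that hold both treatments, the rises had the same sign. On slide 1, with 1 IL1B and 4 PBS arrays, the differences were 1.64 for Pfkfb3, 0.66 for Hk2 and 0.80 for Hk3. On slide 4, with 1 IL1B and 2 PBS arrays, they were 1.85, 1.03 and 1.2. The other 4 IL1B arrays lie on slide 3, which holds no O4+ PBS array. With slide as a block, Slc16a3 no longer passed the adjusted p (0.101), while the calls of Pfkfb3, Hk2 and Hk3 remained.

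Markers of other cells changed in the same O4+ arrays. Of 12 microglia markers, 8 were called higher with a median change of 0.95 over the list, and their mean level went from 13.56 to 14.11 in PBS arrays to 14.69 to 15.07 in IL1B arrays. Of 10 neutrophil and monocyte markers, 9 were called higher, and the mean level went from 4.07 to 4.88 to between 6.32 and 9.21, with 3 of them above background on no PBS array. The microglia markers Itgam and Siglech differed by -0.22 and -0.01. Of 10 endothelial markers, 7 were called lower, and of 11 oligodendrocyte markers none was called, with a median of -0.30. The part of these cells in the rise of Hk2, Hk3 and Pfkfb3 was not tested. In PBS arrays at P5 these 3 genes were lower in O4+ than in CD11B+ cells, as given further on.

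Genes whose values over the 24 O4+ arrays ran most like the called genes were also read, as a description over arrays that share treatment and age. For Pfkfb3 they were Bcl3 and Ccl12 (Pearson r = 0.990 for both), for Hk3 Lrmp (0.981) and Parvg (0.980), and for Hk2 Ctsa (0.965) and Tlr7 (0.962), out of 15384 genes searched. Bcl3 is a regulator of NF-kB, Ccl12 a chemokine, Tlr7 an endosomal receptor for RNA and Ctsa a lysosomal protease.

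In O4+ cells at P10, 5 days after the injections ended, none of the 10 genes was called, where 3.90% of all probes were. The median change over the 10 genes was 0.10, beside -0.02 over all probes. At an unadjusted p under 0.05 there were 2, both higher, and the share of all probes at that threshold was not computed. Pfkfb3 was the 1 gene past the adjusted p alone (10.8% of all probes, 5.41% higher). Pfkfb3 lay at 10.18, 10.33 and 10.42 in PBS and at 10.42, 10.72 and 10.93 in IL1B arrays. The lowest IL1B value was just above the highest PBS value, and the difference was 0.39 (SE 0.09, adjusted p = 0.0176), or 1.31-fold. Its second probe differed by 0.19 (adjusted p = 0.733), and with slide as a block the adjusted p of the first was 0.0795. On slide 5, with 2 IL1B and 5 PBS arrays, the difference was 0.41, and on slide 9, with 1 of each, 0.08. No endothelial or pericyte marker was called at this age. Microglia markers were called higher for 5 of 12 genes, with a median change of 0.47. So were 5 of 10 neutrophil and monocyte, 4 of 6 cell cycle, 3 of 6 astrocyte, 2 of 5 red cell and 1 of 6 neuron markers. Of 11 oligodendrocyte markers, 2 were called higher and 1 lower. The part of these cells in the Pfkfb3 difference was not tested.

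Hk2 had values of 9.02, 9.25 and 9.44 in PBS and 8.95, 9.45 and 9.65 in IL1B arrays at P10. These overlapped, and the difference was 0.16 (95% interval -0.13 to 0.44). Hk3 overlapped as well, at 7.74, 8.12 and 8.69 against 8.07, 8.52 and 8.76, with a difference of 0.34 (95% interval -0.06 to 0.73). The other genes differed by between -0.17 for Slc16a3 and 0.16 for Ldha.

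The responses of O4+ cells at the 2 ages were compared by an interaction term, which 13.1% of all probes passed, 7.83% with a larger and 5.32% with a smaller value at P10. In the fit on probes well above background, 26% passed. Pfkfb3 responded less at P10 than at P5, by -1.33 (SE 0.15, adjusted p = 4e-06), and so did Hk2, by -0.62 (SE 0.17, adjusted p = 0.0156). Ldha had a term of the other sign, 0.47 (SE 0.07, adjusted p = 0.000247), with differences of -0.30 at P5 and 0.16 at P10. Its internal probes, at 0.40 and 0.28, did not pass (adjusted p = 0.0538 and 0.236). For Hk3 the estimate of -0.46 did not pass (adjusted p = 0.197). The terms of Hk2 and Ldha did not pass in the deposited value table, which is scaled to each array's median, with 1 of 3 genes left. With scaling to the 75th percentile the Ldha term was 0.12 (adjusted p = 0.402). The same term was negative for 6 of 12 microglia and 3 of 10 neutrophil and monocyte markers. It was positive for 4 of 10 endothelial, 4 of 6 cell cycle and 4 of 11 oligodendrocyte markers, the last with a median of 0.33. The part of these cells was not tested.

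**Figure D2:**
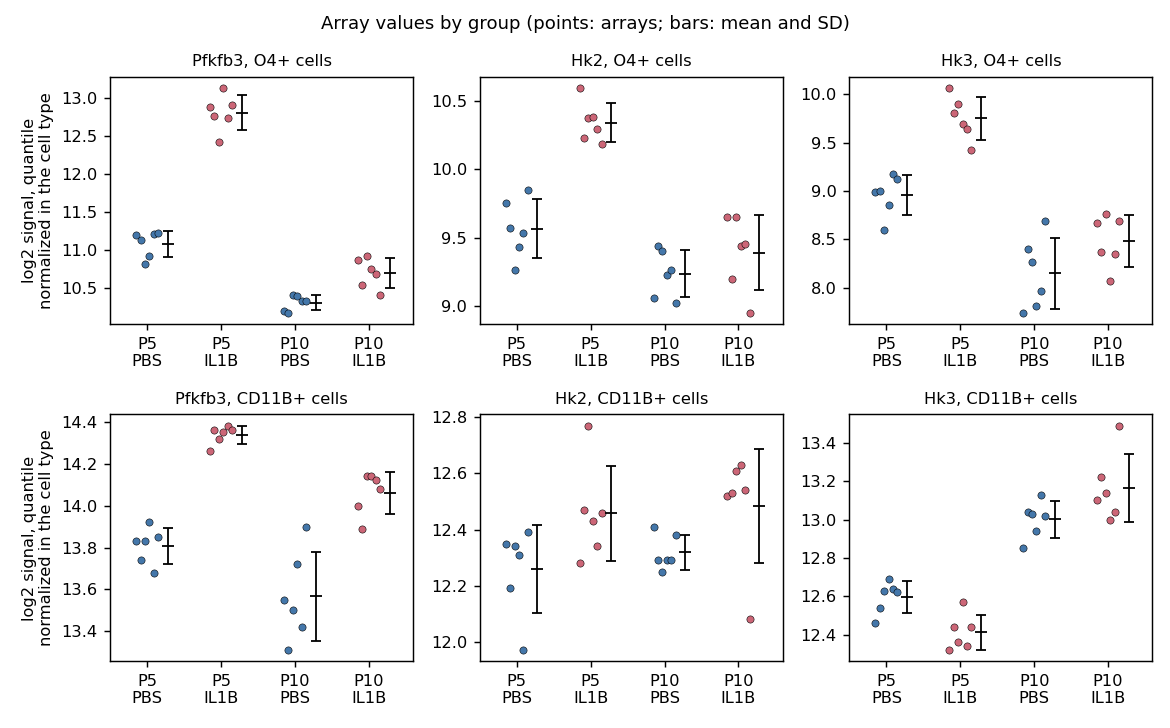
Log2 signal (y axis) of Pfkfb3, Hk2 and Hk3 in every array of the 4 groups of O4+ cells (top) and CD11B+ cells (bottom), with points for arrays and bars for the mean and SD. In O4+ cells at P5 all IL1B arrays of Pfkfb3 (12.42 to 13.12) lay above the PBS arrays (10.82 to 11.22), whereas Hk2 and Hk3 of CD11B+ cells overlapped between treatments.

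In CD11B+ microglia at P5, the changes were small and ran in both directions. No gene was called on its brightest probe, where 9.30% of all probes were. The median change over the 10 genes was -0.22, beside -0.01 over all probes. At an unadjusted p under 0.05 there were 8, and the share of all probes at that threshold was not computed. The same number passed the adjusted p alone (21.6% of all probes), 2 higher (8.06%) and 6 lower (13.5%).

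The higher genes were Pfkfb3 and Slc2a1. Pfkfb3 went from 13.68, 13.83 and 13.92 in PBS to 14.26, 14.36 and 14.38 in IL1B arrays without overlap. The difference was 0.53 (SE 0.05, adjusted p = 1.47e-05), or 1.44-fold, just under the threshold. Its second probe passed, with 0.77 (SE 0.16, adjusted p = 0.00411) and 1.72-fold. Slc2a1 went from 12.47, 12.53 and 12.82 to 12.71, 13.05 and 13.06, with overlap, a difference of 0.39 (SE 0.08) and 1.43-fold between medians.

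The lower genes were Ldha, Pgk1, Eno1, Pfkl, Slc16a3 and Hk3. Ldha went from 16.08, 16.18 and 16.29 to 15.74, 15.81 and 15.97 (difference -0.36, SE 0.05). The Pgk1 probe went from 14.16, 14.30 and 14.44 to 13.84, 13.94 and 14.05 (difference -0.35, SE 0.06). In both, no IL1B array reached the lowest PBS array. Eno1 (-0.29) and Pfkl (-0.26) were likewise separated, while Slc16a3 (-0.29) and Hk3 (-0.19) overlapped. Hk1 (0.01) and Hk2 (0.20, adjusted p = 0.173) did not pass.

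Slides and treatments were nearly separate in CD11B+ cells at P5. Slide 4 alone held both, with 4 IL1B arrays and 1 PBS array, and there the differences were 0.51 for Pfkfb3, 0.13 for Slc2a1, -0.27 for Ldha and -0.24 for Pgk1. With slide as a block Pfkfb3 kept an adjusted p of 0.00706, and the other 7 did not pass (0.14 to 0.799). All 10 neutrophil and monocyte markers were called higher in these arrays, from a mean level of 9.10 to 10.16 to one of 12.42 to 13.19, while 2 of 12 microglia markers were called lower and none higher. Of 10 endothelial markers 7 were called lower and 1 higher, and of 6 cell cycle markers 4 were called lower. Of 11 oligodendrocyte markers 3 were called lower and 2 higher, and of 6 pericyte markers 2 lower and 1 higher. Their part in these differences was not tested.

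The response at P5 differed between the cell types for the genes called in O4+ cells. The interaction term, passed by 10.7% of all probes (6.93% with a larger value in O4+ cells), was 1.29 (SE 0.13, adjusted p = 6.37e-07) for Pfkfb3, 1.02 (SE 0.14, adjusted p = 2.97e-05) for Hk3 and 0.63 (SE 0.14, adjusted p = 0.00461) for Hk2, each larger in O4+ cells. For Ldha and Pgk1, which were lower by like amounts in both cell types, the terms were 0.02 each (SE 0.07). The microglia markers showed the same direction, with 10 of 12 larger in O4+ cells and a median term of 1.30, and their part was not tested.

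In CD11B+ cells at P10, Slc16a3, which exports lactate from strongly glycolytic cells, was the 1 gene called, where 2.17% of all probes were called and 1.09% were called higher. The median change over the 10 genes was 0.25, beside 0.00 over all probes. Slc16a3 lay at 11.40, 11.62 and 11.89 in PBS and at 11.65, 12.28 and 12.41 in IL1B arrays. Of the IL1B arrays, replicate 2 lay within the PBS range and the others above it. The rise was 0.56 (SE 0.13, adjusted p = 0.0294), or 1.57-fold, and its overlapping second probe gave 0.58 and 1.57-fold.

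The Slc16a3 call was close to the threshold. On slide 7, with 5 IL1B and 2 PBS arrays, the difference was 0.34. With slide as a block the adjusted p was 0.547, and only 2 probes of the whole array were called in that fit. The change ran from 0.51 to 0.66 in the 12 fits without 1 array. The call held in 3 of these, and was lost without any one of PBS replicates 1 to 4 or IL1B replicates 1, 3, 4, 5 and 6, at adjusted p-values from 0.0521 to 0.0717.

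By the adjusted p alone, 5 genes were higher and none lower, where 6.50% of all probes passed, 3.35% with a higher level. Beside Slc16a3 they were Pfkfb3 (0.49, 1.49-fold), Pfkl (0.43), Pgk1 (0.36) and Ldha (0.29). Pfkl values of 9.82, 9.94 and 10.08 in PBS and 10.16, 10.36 and 10.55 in IL1B arrays did not overlap. Pfkfb3 overlapped barely, at 13.31, 13.53 and 13.90 against 13.89, 14.10 and 14.14. Ldha lay at 15.40, 15.51 and 15.71 against 15.68, 15.84 and 15.87, and its internal probes, at 0.56 and 0.49, did not overlap between treatments. On slide 7 the differences were 0.40 for Pfkfb3, 0.28 for Pfkl, 0.20 for Pgk1 and 0.16 for Ldha, and with slide as a block none of the 4 passed (0.388 to 0.598).

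Slc2a1 (0.03), Hk1 (-0.09), Hk2 (0.16), Hk3 (0.16) and Eno1 (0.20, adjusted p = 0.173) were not past the test at P10. Of neutrophil and monocyte markers, none was called, with a median change of 1.28, no microglia marker was called, and 2 of 11 oligodendrocyte markers were called lower. Vat1 and Anxa5 ran most like Slc16a3 over the 24 CD11B+ arrays (Pearson r = 0.960 for both, out of 14447 genes).

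**Figure D3:**
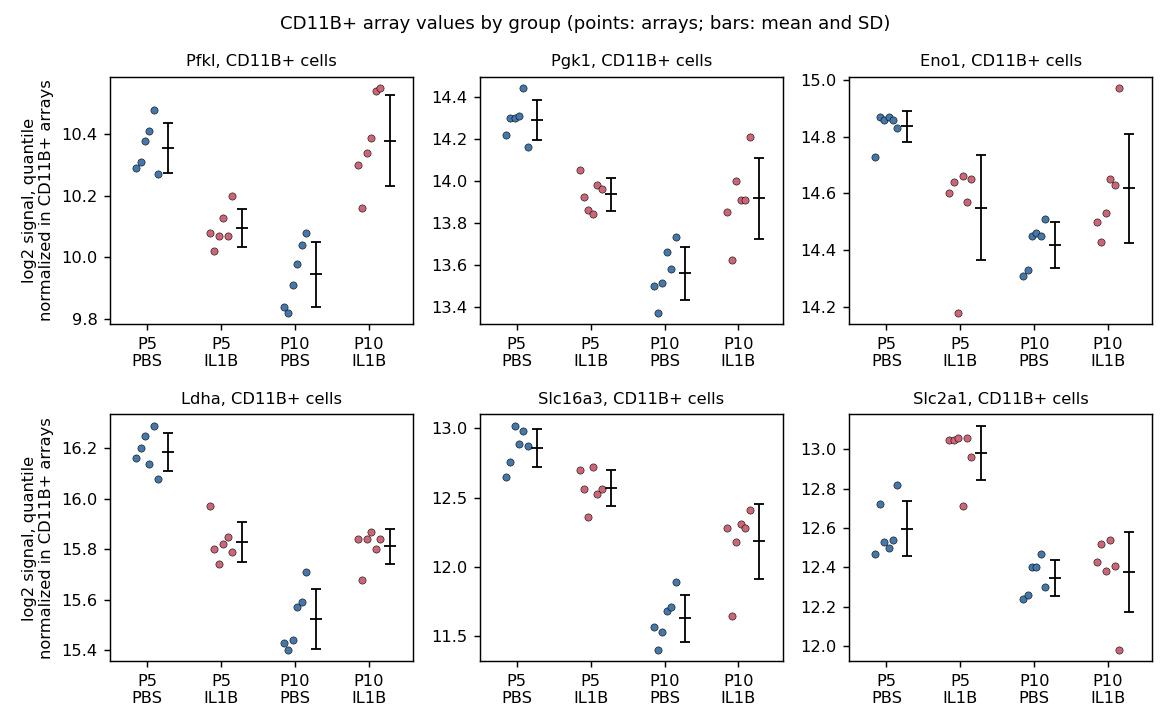
Log2 signal (y axis) of Pfkl, Pgk1, Eno1, Ldha, Slc16a3 and Slc2a1 in every CD11B+ array, with points for arrays and bars for the mean and SD of 6 arrays. By the adjusted p, Ldha, Pgk1, Pfkl and Slc16a3 were lower with IL1B at P5 (-0.36 to -0.26) and higher at P10 (0.29 to 0.56), whereas Eno1 was lower at P5 (-0.29) and did not pass at P10 (0.20).

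The difference between the ages was tested as such. In CD11B+ cells the interaction of treatment and age passed for 6 of the 10 genes, where 16.8% of all probes passed (10.5% in the positive direction). In the fit on probes well above background, 35.9% passed in either direction. All 6 terms of the genes were positive. They were 0.85 for Slc16a3 (SE 0.15, adjusted p = 0.000343), 0.71 for Pgk1, 0.70 for Pfkl, 0.65 for Ldha (SE 0.08, adjusted p = 5.44e-06), 0.49 for Eno1 and 0.35 for Hk3. Pfkfb3 had a term of -0.04 (SE 0.11) and Slc2a1 one of -0.35 (adjusted p = 0.0547). With slide as a block 1 gene, Ldha, still passed (0.43, adjusted p = 0.0421). Neutrophil and monocyte markers also responded differently at the 2 ages, with 8 of 10 terms negative. Of the endothelial markers 5 of 10, of the red cell markers 4 of 5 and of the cell cycle markers 4 of 6 had positive terms, the direction of the 6 genes, and 1 endothelial marker had a negative one. Their part was not tested.

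At P10 the responses of the cell types differed for Slc16a3 (-0.72, SE 0.22, adjusted p = 0.046) and Pgk1 (-0.50, SE 0.14, adjusted p = 0.038), both larger in CD11B+ cells, where 7.56% of all probes passed, 3.65% in that direction. Neither passed with slide as a block, and fits without 1 array left between 0 and 3 genes.

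The levels of PBS cells at P5 and P10 were compared to see how the pathway changes with age. No slide holds PBS arrays of both ages of a cell type, so slide and age cannot be told apart in these values. The PBS arrays are the same as in the comparisons with IL1B, and the changes are given side by side with those only as values.

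In O4+ cells 2 of the 10 genes were called, both lower at P10, where 16.8% of all probes were called and 8.96% were called lower. The median over the 10 genes was -0.26, beside 0.02 over all probes. Pfkfb3 fell by 0.77 (SE 0.08, adjusted p = 1.82e-05), from a median of 11.17 to 10.33 with no overlap, while its second probe did not pass (-0.39, SE 0.26, adjusted p = 0.293) and overlapped. Hk3 fell by 0.81 (SE 0.17, adjusted p = 0.00248), from a median of 9.0 to 8.12, with overlap. The change by IL1B at P5 in these genes had been 1.72 and 0.80. Microglia markers were called lower for 9 of 12 genes with age and higher for 1, with a median of -1.15. Endothelial markers were called lower for 6 of 10 genes, pericyte markers for 5 of 6, red cell markers for 3 of 5 and cell cycle markers for 5 of 6. Of 11 oligodendrocyte markers, 4 were called higher and 2 lower. The part of these cells in the changes with age was not tested.

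By the adjusted p alone, which 34.0% of all probes passed (17.4% higher and 16.6% lower), the Pgk1 probe was higher at P10 (0.51, SE 0.08), and Hk1 (-0.22), Hk2 (-0.33) and Ldha (-0.30) were lower. Under scaling to the 75th percentile or to the median, the Pgk1 difference also passed the fold threshold, and Ldha and Hk1 changed sign. Slc2a1 (-0.33), Slc16a3 (0.08) and Eno1 (0.00) did not pass. Neither did Pfkl, whose mean was 10.37 at P5, with 1 array at 8.62, and 10.69 at P10. Its median was 1.06-fold lower at P10.

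In CD11B+ cells 3 genes were called, all lower at P10, where 8.26% of all probes were called and 3.61% were called lower. The median over the 10 genes was -0.33, beside 0.00 over all probes. Slc16a3 went from a range of 12.65 to 13.02 at P5 to one of 11.40 to 11.89 at P10, falling by 1.24 (SE 0.09, adjusted p = 7.91e-06), or 2.39-fold. The Pgk1 probe fell by 0.73 (SE 0.07), or 1.69-fold, and Ldha fell by 0.66 (SE 0.06), or 1.59-fold. In none of the 3 did the ages overlap, and the calls remained in all 25 alternative settings tried.

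Eno1 (-0.42), Pfkl (-0.41) and Slc2a1 (-0.25) were lower and Hk3 (0.40) higher by the adjusted p alone, where 21.3% of all probes passed (12% higher and 9.26% lower). Hk3 was apart from the others, with 12.46 to 12.69 at P5 and 12.85 to 13.13 at P10. Pfkfb3 (-0.24), Hk2 (0.06) and Hk1 (0.03) did not pass. Of the oligodendrocyte markers, 8 of 11 were higher in CD11B+ cells at P10, and of microglia markers 4 of 12 were. Of the endothelial markers, 8 of 10 were lower with a median of -0.63, the direction of Slc16a3, Pgk1 and Ldha. Their part was not tested.

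The cell types were set side by side in PBS arrays normalized over all 48, which shows which of the 10 genes belong more to one. At P5, 5 genes were called, 4 lower and 1 higher in O4+ cells, where 41.6% of all probes were called (21.8% lower and 19.8% higher). At P10, 6 were called, 4 lower and 2 higher, where 42.4% of all probes were (20.2% lower and 22.2% higher). In the fits on probes well above background, 61.2% were called at P5 and 62.7% at P10.

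Hk3 had the largest difference among the 10 genes. At P5 it lay at 8.36, 8.78 and 8.96 in O4+ and at 12.48, 12.64 and 12.71 in CD11B+ arrays. The difference was -3.88 (SE 0.09, adjusted p = 1.73e-11), or 14.6-fold, and -5.09 (SE 0.15), or 35.1-fold, at P10. Hk2 was lower by 7.97-fold at P5 and 9.73-fold at P10 (-2.92 and -3.32), and Pfkfb3 by 6.60-fold and 10.0-fold (-2.79 and -3.38). Slc16a3 was lower by 4.73-fold at P5 (-2.26, SE 0.08) and 1.99-fold at P10 (-1.0, SE 0.13). No array of one cell type reached the other in these 4 genes, and on slide 4, which held both at P5, the differences were -4.00, -3.04, -2.90 and -2.36.

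Of the lower enzymes, Eno1 was higher in O4+ cells, by 0.65 (SE 0.05) at P5 and 1.06 (SE 0.06) at P10, and the Pgk1 probe by 0.50, which did not pass the fold threshold, and 1.76 (SE 0.09). The direction at P5 depended on the scaling. With the arrays scaled to the 75th percentile, Eno1 differed by -0.12, the Pgk1 probe by -0.20 (adjusted p = 0.0101) and Ldha by -0.59 instead of 0.26. The internal Ldha probes differed by 0.00 and -0.28 (adjusted p = 0.000434) without that change of scaling, so the probes of Ldha did not share a direction. At P10 both Eno1 and Pgk1 kept their direction and call in all 26 settings. Ldha differed by 0.56 there and was not called, with a difference between medians at the threshold of 1.5-fold.

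Slc2a1 did not pass at either age (0.35, 95% interval 0.00 to 0.71, and 0.25, 95% interval -0.05 to 0.56), and its sign at P5 turned with the scaling and with slide as a block (-0.26 to -0.16). For Hk1 the probes pointed in opposite directions. The brightest differed by -0.22 at P5 and -0.49 at P10, whereas the others were called higher in O4+ cells, by 1.70 and 1.36 at P5 and by 0.95 and 0.92 at P10. The last of the 3 is shown because the order of the cell types for Hk1 depends on the probe read. It lies at chr10:61732717-61732776 on the minus strand in mm9.
Hk1 probe at 61732717: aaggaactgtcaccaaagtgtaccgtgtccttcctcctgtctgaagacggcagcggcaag

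Pfkl lay at -0.23 (SE 0.35) at P5, with the PBS array at 8.38 included, and at 0.49 (SE 0.10) at P10, under the fold threshold.

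**Figure D4:**
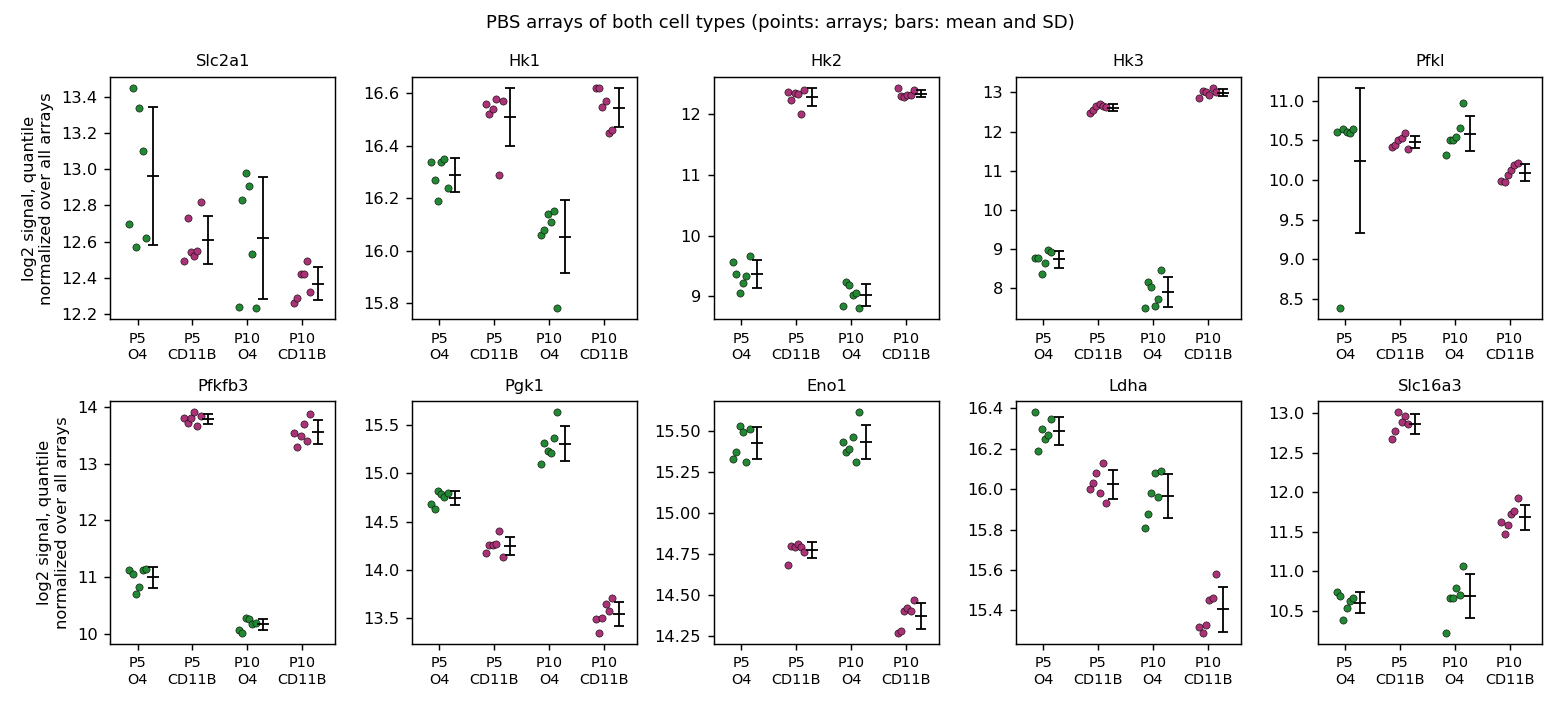
Log2 signal (y axis) of the 10 genes in PBS arrays of O4+ and CD11B+ cells at P5 and P10, normalized over all 48 arrays, with points for arrays and bars for the mean and SD. Hk2, Hk3, Pfkfb3 and Slc16a3 were lower in O4+ arrays at both ages without overlap, and the Pgk1 medians were 15.27 in O4+ and 13.53 in CD11B+ cells at P10.

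The neighbours of the 10 genes in the pathway were read from lists of 75 further genes. With IL1B in O4+ cells at P5, 4 of the 75 were called higher and none lower, where 4.92% of all probes were called, and the median change was -0.08. None of 8 other glucose transporters, 21 other glycolysis genes, 13 genes of lactate and pyruvate and 7 of the pentose phosphate pathway was called. Of 14 hypoxia-response genes 3 were called higher, among them Hif3a, a hypoxia-inducible factor subunit that lacks the full activating domain (2.82, SE 0.24, 8.08-fold, without overlap), and Car9, a carbonic anhydrase (0.85, SE 0.19, 2.02-fold, with overlap). By the adjusted p alone, 6 of these 14 were lower and 3 higher, with a median of -0.14. Of the 21 other glycolysis genes, 8 were lower and 3 higher by it, with a median of -0.10. Of all probes, 11.5% were lower and 6.75% higher by it. Of 12 genes of glycogen and gluconeogenesis, Pygl, the liver-type glycogen phosphorylase, rose by 0.82 (SE 0.13), or 1.78-fold. In PBS arrays at P5, Pygl was 11.8-fold and Car9 11-fold lower in O4+ than in CD11B+ cells. Microglia markers had a median change of 0.95 with IL1B in the same O4+ arrays, and their part was not tested.

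In O4+ cells at P10, 3 of the 75 were called higher and 1 lower, where 3.90% of all probes were called, with a median of 0.03. Pklr, the pyruvate kinase of liver and red cells, rose by 1.12 (SE 0.21) from a PBS level that was well above background on 4 of 6 arrays, and 2 of 5 red cell markers were called higher in the same arrays, whose part was not tested. Slc2a4, the insulin-responsive transporter, rose by 0.68, and Ppp1r3c, which targets a phosphatase to glycogen, by 0.56. Ndrg1, a hypoxia-responsive gene also known from myelinating cells, fell by 0.88 (SE 0.21).

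In CD11B+ cells at P5, 8 of the 75 were called higher and 5 lower, where 9.30% of all probes were called, with a median of -0.09. Slc2a3, the high-affinity glucose transporter of neurons and leukocytes, rose by 2.13 (SE 0.11, adjusted p = 1.99e-07), or 4.59-fold, beside the 0.39 of Slc2a1. Hif3a rose by 2.22 (SE 0.15) and Ddit4, a stress-induced inhibitor of mTORC1, by 1.51 (SE 0.19). The fructose transporter Slc2a5, a microglia gene, fell by 1.51 (SE 0.20), the hypoxia-inducible factor subunit Epas1 fell by 0.99, and the brain-type glycogen phosphorylase Pygb fell by 0.74. All 10 neutrophil and monocyte markers were called higher in these arrays, and their part in these changes was not tested.

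In CD11B+ cells at P10, 4 of the 75 were called higher and none lower, where 2.17% of all probes were called, with a median of 0.13. Egln3, a prolyl hydroxylase induced in hypoxia, rose by 1.03 (SE 0.26), the transporter Slc2a6 by 0.81 (SE 0.21) and Car9 by 0.72 (SE 0.12). Of 21 other glycolysis genes, 5 were higher by the adjusted p alone and none lower, with a median of 0.29. Of all probes, 3.35% were higher by it. At P5, 4 had been higher and 8 lower with a median of -0.28, where 8.06% and 13.5% of all probes were. The interaction of treatment and age passed for 22 of the 75 genes in the positive and 7 in the negative direction. Of all probes, 16.8% passed and 10.5% did so in the positive direction. With slide as a block 4.66% of all probes passed it, and only 2 probes of the whole array were called with IL1B at P10. In the fit on probes well above background, 35.9% passed in either direction.

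With age in PBS O4+ cells, 10 of the 75 were called higher and 10 lower, where 16.8% of all probes were called. The pyruvate dehydrogenase kinases, which restrain the entry of pyruvate into the mitochondrial cycle, split, with Pdk2 rising by 1.36 (SE 0.12) and Pdk3 by 1.33 (SE 0.07) while Pdk4 fell by 1.38 (SE 0.19). Ndrg1 rose by 1.57 (SE 0.30). Pygl fell by 1.36 and Hif3a fell by 1.35. In PBS arrays at P10, Pygl was 25.7-fold and Hif3a 16.4-fold lower in O4+ than in CD11B+ cells. Microglia markers had a median change of -1.15 with age in the same O4+ arrays, with 9 of 12 called lower and 1 higher. Their part was not tested. In CD11B+ cells 4 were called higher and 9 lower, where 8.26% of all probes were called, and Egln3 fell by 2.35 (SE 0.12), Pdk4 fell by 2.17 (SE 0.14) and Slc2a6 fell by 1.07 (SE 0.19). Ddit4 rose by 0.78 and the muscle enolase Eno3 by 0.75. Slide and age cannot be told apart in these values of either cell type.

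Between the cell types, 23 of the 75 were higher and 20 lower in O4+ PBS cells at P5, and 29 and 16 at P10, where 41.6% and 42.4% of all probes were called. Pygl was 11.8-fold lower at P5 and 25.7-fold lower at P10, and Slc2a5 was 12.6-fold and 44.7-fold lower. Car9 was 11-fold lower at P5 and Hif3a 16.4-fold lower at P10. Ddit4 was 6.95-fold and 8.25-fold higher in O4+ cells, and Ndrg1 and Vegfa, the endothelial growth factor, were 11.9-fold and 9.95-fold higher at P10. Pklr was not well above background on any CD11B+ PBS array at P5 and was at least 2.99-fold higher in O4+ cells at P5, computed against the lowest signal well above background. Of the 21 other glycolysis genes, 7 were higher and 3 lower in O4+ cells at P5, and 12 and 3 at P10.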

How the data were processed

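RNA from 48 samples was hybridised by the authors to 1-color Agilent arrays. The deposited scanner files (Agilent Feature Extraction 10.7.3.1, per the file headers) hold an intensity per spot, background-subtracted by that software, which was used here. The deposited value table holds, as tested on the files, the ratio of this signal to the array median (largest deviation 1.86e-05 in log2), and was used as an alternative. Quantile normalization of the log2 intensities ran within each cell type (24 arrays) and, for contrasts of O4+ with CD11B+ cells, on all 48. Spots were averaged per probe after 278 non-uniform spots were left out. No spot was saturated. The tests on groups of 6 used limma (version 3.58.1, R version 4.3.3, data.table package version 1.17.8), with Benjamini-Hochberg adjustment over 55681 probes, at an adjusted p under 0.05 and a ratio of medians over 1.5. Interactions had no fold threshold. Intervals of 95% use 10 degrees of freedom. The fit was tested on simulated data. The number of arrays limits the precision.

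A gene was represented by its probe with the most signal over 48 arrays, and all 10 genes were named. Of the pathway lists, up to 3 rises and 3 falls with the largest change among called genes were named per comparison, apart from some that are not reported here. For each gene called with IL1B, the 2 genes most like it by Pearson r were named. The 10 genes, the lists and the tests were chosen with earlier results of these data known. Promoter and gene names came from RefSeq tables (GRCm38.p6), and probe positions from the files (mm9).

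The settings tried besides were normexp with an offset of 50, a 75th-percentile scaling, quantile normalization of the compared groups alone, the deposited values, only probes above background, the methods' test, no fold threshold, folds from mean log2, all groups in 1 fit, blocks for slide, scan day and replicate number, the mean over a gene's probes, and leaving out each array. Leaving out slide 9 was chosen after seeing the data. Dropping the fold threshold could not lose a call. The mean over probes left the values of a gene with 1 probe, such as Hk2 or Hk3, as they were.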

Additional observations from a re-analysis of the deposited data

Results flagged for a closer look

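Of 80 groups of 6 arrays checked (10 genes in 8 groups), 13 had an array that stood apart from the others by Dixon's criterion, which chance meets in about 1 of 20 groups. The array farthest from its group was PBS replicate 2 of O4+ cells at P5, with 8.62 for Pfkl where the next was 10.70. Replicate 6 of P10, which lies on slide 9 in 3 groups, was low for Hk1 in O4+ PBS (15.64), O4+ IL1B (15.69) and CD11B+ IL1B cells (16.44), and in the last also for Hk2 (12.08) and Slc2a1 (11.98). Slc16a3 was low in IL1B replicate 2 at P10, in O4+ (9.96) and in CD11B+ cells (11.65). For Eno1, O4+ IL1B replicate 3 at P5 was high (15.40), and CD11B+ PBS replicate 1 (14.73) and CD11B+ IL1B replicate 3 (14.18) at P5 were low. At P5, CD11B+ PBS replicate 5 was low for Hk1 (16.47) and CD11B+ IL1B replicate 4 for Slc2a1 (12.71). The values are log2 signal, and the cause was not tested.

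The IL1B response differed between ages or cell types in 14 of 40 tests of an interaction term (10 genes in 4 contrasts), where 13.1%, 16.8%, 10.7% and 7.56% of all probes passed in the order below. In the fits on probes well above background, these shares were 26%, 35.9%, 20.3% and 16%. From P5 to P10 in O4+ cells the response changed by -1.33 for Pfkfb3, -0.62 for Hk2 and 0.47 for Ldha. In CD11B+ cells it changed by 0.85 for Slc16a3, 0.71 for Pgk1, 0.70 for Pfkl, 0.65 for Ldha, 0.49 for Eno1 and 0.35 for Hk3, of which Ldha alone passed with slide as a block. It was larger in O4+ than in CD11B+ cells at P5 by 1.29 for Pfkfb3, 1.02 for Hk3 and 0.63 for Hk2, and differed by -0.50 for Pgk1 and -0.72 for Slc16a3 at P10, neither of which passed with slide as a block.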

How the results depend on the processing

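Precision is limited by 6 arrays per group, and slides are partly confounded with treatment and fully with age. Scaling to the 75th percentile or to the array median moved the median of all probes by over 0.1 in several comparisons (-0.34 and -0.45 between cell types at P5). The rises of Pfkfb3, Hk2 and Hk3 in O4+ cells at P5 were called in all 25 alternative settings, of which 12 left out 1 array. In the fits on probes well above background, the shares called were 7.3% (O4+ P5), 6.94% (O4+ P10), 15.7% (CD11B+ P5) and 5.94% (CD11B+ P10). They were 25.4% (O4+, age), 14.1% (CD11B+, age), 61.2% (cell types, P5) and 62.7% (cell types, P10). For the interactions they were 26% (O4+, age), 35.9% (CD11B+, age), 20.3% (cell types, P5) and 16% (cell types, P10). The share of higher among all called probes was 69.8% in O4+ cells at P5 (81.2% with normexp, 58.3% with the deposited values), 63.7% in O4+ cells at P10 (42.6% with the 75th percentile, 51.6% with the deposited values), 43.6% in CD11B+ cells at P5 (54.1% with normexp, 54.6% with the 75th percentile) and 50% in CD11B+ cells at P10 (64.7% with the deposited values).

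Without a fold threshold, the genes past the test were 6 instead of 3 (O4+ P5), 1 instead of 0 (O4+ P10), 8 instead of 0 (CD11B+ P5), 5 instead of 1 (CD11B+ P10), 6 instead of 2 (O4+, age), 7 instead of 3 (CD11B+, age) and 8 instead of 5 (cell types, P5), since fewer conditions were set. In CD11B+ cells at P5, Pfkfb3 was called, 1 gene, with the 75th percentile and with the mean over probes. In CD11B+ cells at P10, 2 genes were called, with Pfkfb3, under normexp, the 75th percentile, the deposited values and the mean over probes, and 0 with folds from mean log2, the slide block or the scan day block. Without slide 9 the 1 gene called there was Pfkfb3, not Slc16a3. Interactions left 1 of 3 genes with the deposited values (O4+, age) and 1 of 6 with the slide block (CD11B+, age), and between cell types at P10 the 2 genes became 5 with the 75th percentile or the deposited values and 0 with the slide block. The causes were not tested.

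Signs were reversed in some settings, and the cases here are not a full list. Between cell types at P5 this held for Eno1 (-0.12 with the 75th percentile, -0.22 with the deposited values), Ldha (-0.59 and -0.70) and the Pgk1 probe (-0.20 and -0.31). It also held there for Slc2a1 (-0.16 and -0.26, and -0.23 with the slide block) and for Hk1 with the mean over probes (0.95). In the O4+ interaction with age, Hk1 was reversed with the 75th percentile (-0.35). Ldha and Hk1 changed sign with age in O4+ cells under scaling to the 75th percentile or to the median. Without O4+ PBS replicate 2, Pfkl was reversed in the interaction with cell type at P5 (-0.21, and up to 0.24 without other arrays). Leaving out that array also reversed Pfkl between cell types at P5 and with age in O4+ cells.

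Without 1 array, the called genes were 3 (O4+ P5), 0 (O4+ P10), 0 (CD11B+ P5), 0 to 2 (CD11B+ P10), 2 (O4+, age), 3 (CD11B+, age), 4 to 5 (cell types, P5) and 6 to 7 (P10), and the interactions 3 to 4 (O4+, age), 6 to 7 (CD11B+, age), 3 to 4 (cell types, P5) and 0 to 3 (P10). The replicate numbers were not taken as pairs, since no comparison had all 6 correlations over 0.1 (range -0.308 to 0.819). Between the cell types 5 of 6 were over 0.1 at each age, and 5 of 6 samples at P5 and 4 of 6 at P10 correlated best with their own number, a hint of pairing from the data that the labels do not give. With a replicate block the genes called were 3, 0, 0, 1, 2, 3, 5 and 6 in the order above and the interactions 3, 6, 3 and 3, the last with Pfkl gained.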
